A study of Homo sapiens with 2 samples.

Results

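The genes described are 10 members of the kinase cascade that runs from RAS through RAF and MEK to ERK, ARAF, KSR2, MAP2K1, MAP2K2, MAPK3, PTPN11, SHC1, NF1, GRB2 and HRAS, listed by name and taken with every array probe that the platform annotation gives them. All 10 had a named probe, 18 probes in all, among 20045 genes named on the array. Each gene was detected (detection p under 0.01) by at least 1 probe on 1 or both arrays, as were 10430 genes overall. Of the 18 probes 14 were detected on 1 or both arrays and 12 on both. The series measured mRNA in HCT116 cells, an established human colorectal carcinoma line described as p53+/+, on 2 Illumina bead arrays. One array held RNA from cells given vehicle (0 nM) and the other RNA from cells given 10 nM SB590885, an inhibitor of RAF kinases, both in the same serum-containing medium. The question in the series title was the effect of RAF inhibition across the genome. With 1 array per condition no value has a replicate error and no test was possible, so each difference is one between these 2 arrays.

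The cascade carries growth signals from the cell surface to the nucleus. Adaptors bound to activated receptors bring an exchange factor to RAS, RAS loaded with GTP recruits RAF kinases to the membrane, RAF phosphorylates the MEK kinases, and MEK phosphorylates ERK. HCT116 cells are known for an activating RAS mutation, and RAF inhibitors are known to lower ERK signalling in some RAF-mutant cells and to raise it in cells with mutant RAS. These switches act through GTP loading and phosphorylation, which an mRNA array does not measure.

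The region just before the annotated start is shown for both MEK genes, MAPK3 and SHC1, which were chosen by their ratios. The paralogous MEK genes had ratios that lay apart, each on a single probe. MAPK3 and SHC1 had the highest ratios among the 10 on their brightest probes, while the second detected SHC1 probe had a log2 ratio of -0.08. The RefSeq promoter table (GRCh38.p14) held 9 of the 10 genes. Each line gives 250 bases that end 1 base before the start, read 5′ to 3′ on the gene's strand, and for genes with 2 listed starts the one farthest upstream. Capitals mark matches, on either strand, to any of the motifs GGGCGG (SP1 box), CCAAT (the CCAAT box), CCGGAAGT (ETS core), TGACGTCA (CRE), TGACTCA (AP-1), TATAAA (the TATA box) and TTTCCCGC (E2F).
MAP2K1 (chr15:66386662-66386911, plus strand): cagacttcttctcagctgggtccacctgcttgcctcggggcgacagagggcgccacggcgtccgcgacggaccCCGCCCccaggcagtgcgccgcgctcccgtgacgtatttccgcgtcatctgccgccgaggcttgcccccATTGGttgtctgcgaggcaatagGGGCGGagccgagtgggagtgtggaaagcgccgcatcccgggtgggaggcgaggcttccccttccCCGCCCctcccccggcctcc
MAP2K2 (chr19:4124123-4124372, minus strand): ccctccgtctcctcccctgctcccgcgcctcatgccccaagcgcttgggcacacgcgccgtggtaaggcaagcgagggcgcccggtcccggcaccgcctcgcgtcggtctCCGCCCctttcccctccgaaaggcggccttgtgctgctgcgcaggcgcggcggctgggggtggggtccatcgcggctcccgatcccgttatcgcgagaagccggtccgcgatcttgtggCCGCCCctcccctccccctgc
MAPK3 (chr16:30123221-30123470, minus strand): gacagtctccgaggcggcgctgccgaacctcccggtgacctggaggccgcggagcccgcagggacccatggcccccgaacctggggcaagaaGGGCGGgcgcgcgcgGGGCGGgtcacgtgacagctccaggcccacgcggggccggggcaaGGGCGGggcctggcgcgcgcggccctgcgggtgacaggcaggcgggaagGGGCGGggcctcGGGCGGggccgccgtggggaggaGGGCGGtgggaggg
SHC1 (chr1:154974377-154974626, minus strand): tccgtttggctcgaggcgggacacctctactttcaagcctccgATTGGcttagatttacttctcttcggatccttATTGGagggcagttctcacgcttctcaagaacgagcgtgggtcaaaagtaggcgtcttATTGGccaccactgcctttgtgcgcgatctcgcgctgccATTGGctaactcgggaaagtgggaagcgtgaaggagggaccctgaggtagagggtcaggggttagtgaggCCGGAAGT

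MAP2K1 held 3 matches to the SP1 box and 1 to the CCAAT box, and MAP2K2 held 2 to the SP1 box. MAPK3 had 6 matches to the SP1 box in sequence that was 80.4% G and C, against a median of 58% over all promoters in the table. The SHC1 region, at 55.2% G and C, held 4 matches to the CCAAT box and the one ETS core match among the 9 genes, which covers the last 8 bases before the start. ETS factors are nuclear targets of ERK. Of all 35116 promoter regions of this length, 42.6% held an SP1 box, 32.0% a CCAAT box and 3.42% the ETS core. The CRE, which 1.65% of regions held, was found once, in NF1, and the AP-1, TATA and E2F motifs (4.20%, 10.7% and 1.39% of regions) in none of the 9 windows. The 2 overlapping SP1 boxes of GRB2 were counted separately. A match describes these letters, nothing was measured at these sites, and a link between matches and ratios was not tested.

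The 2 arrays had nearly the same distribution of deposited normalized intensities, with 15944 and 16694 of 47318 probes detected. When sorted, the intensities differed by at most 0.13, so a shift shared by all genes could not be seen. Background was left in the deposited intensities, whose lowest value was 90.7, and the lowest detected intensities were 132.2 with vehicle and 129.8 with SB590885. Ratios of dim genes are therefore compressed. Ratios are those of the deposited intensities unless called background-corrected, and the corrected ratio is given for some genes. All 6 epithelial markers (EPCAM, CDH1, KRT8, KRT18, KRT19 and CLDN4) were detected. Of 6 colon markers CDX2 was detected, while CDX1, VIL1, LGALS4, GPA33 and CDH17 were not. No endothelial marker of 4 was detected, and 1 of 5 leukocyte markers (CD68) and 3 of 6 stromal markers (COL1A1, COL1A2 and DCN) were, with PTPRC, the pan-leukocyte marker, not detected.

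None of the 10 genes differed by 1.5-fold between the arrays, against 2.67% of all detected genes (278 of 10430) in the same deposited intensities. With background correction 1 gene, KSR2, passed 1.5-fold, against 9.79% of detected genes. Both counts are near the background share and say nothing particular about the 10 genes. Of the 10 ratios 4 were higher and 6 lower after SB590885, from -0.34 (PTPN11) to 0.26 (MAPK3) on the log2 scale. Their median log2 ratio was -0.09, against -0.00082 over all detected genes, and their SD was 0.23 against 0.24. The median size of a log2 ratio regardless of sign was 0.24 for the 10 genes and 0.13 for all detected genes, and because the genes were listed with results of these arrays known, this is a description only. In RNA from a whole culture, fewer cells expressing a gene and less RNA per cell cannot be told apart.

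**Figure D1:**
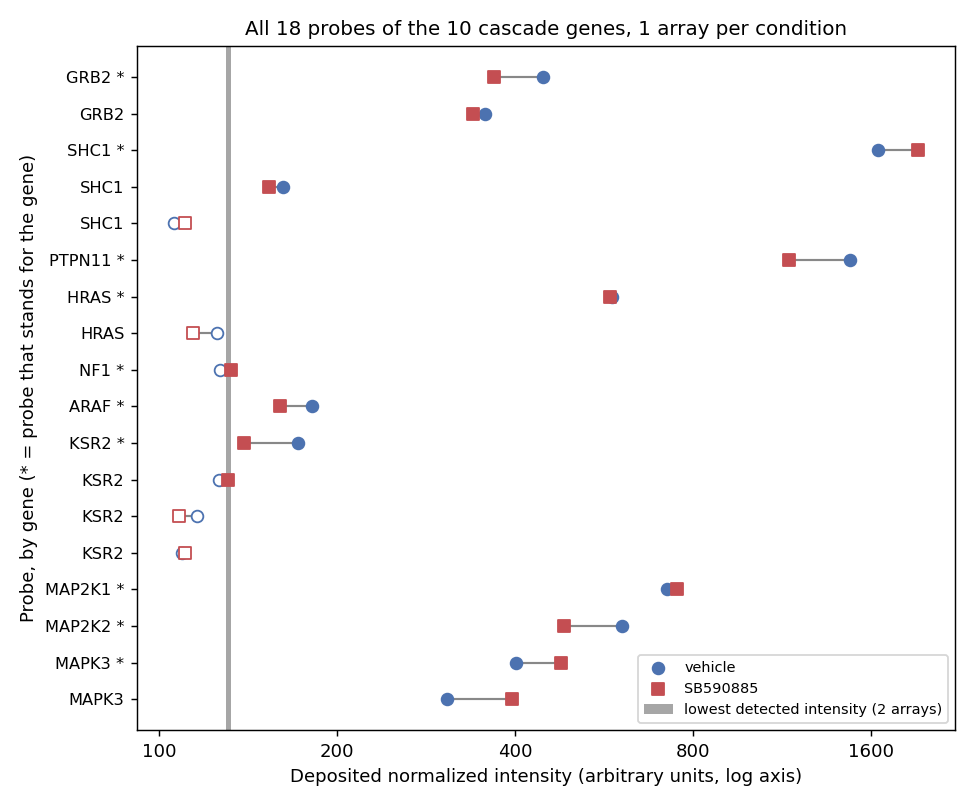
Deposited normalized intensity (log axis) of each of the 18 probes of the 10 genes on the vehicle array (circles) and the SB590885 array (squares), filled where the probe was detected on that array, with the lowest detected intensities shaded. PTPN11, MAP2K2 and 1 probe of GRB2 are visibly lower after SB590885, both MAPK3 probes and the brightest SHC1 probe are higher, and NF1 and 3 of 4 KSR2 probes lie at or below the detection limit.

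GRB2, the adaptor that links receptors to the RAS exchange factor SOS, read 445.5 with vehicle and 368.6 after SB590885 on its brighter probe, a log2 ratio of -0.27 (1.21-fold lower), and -0.36 with background correction. Its second probe read 356.1 and 339.3, a log2 ratio of -0.07. Both probes were lower, by unequal amounts. SHC1, a phosphotyrosine adaptor that docks GRB2 to receptors, read 1645 and 1925 on its brightest probe, 1.17-fold higher with a log2 ratio of 0.23. Its second detected probe, for the same annotated transcript, read 161.8 and 153.1 and had a log2 ratio of -0.08, so the direction for SHC1 depends on the probe. The remaining SHC1 probe, for another transcript, was not detected on either array (106.0 and 110.4).

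PTPN11 encodes SHP2, a tyrosine phosphatase that promotes RAS activation downstream of receptors. Its single probe read 1473 with vehicle and 1165 after SB590885, a log2 ratio of -0.34 (1.26-fold lower), the lowest of the 10 as deposited. PTPN11 lies far above background, and its background-corrected log2 ratio was -0.37, behind KSR2 (-0.84), ARAF (-0.41) and MAP2K2 (-0.40). Among the 500 detected genes nearest to it in mean intensity, the log2 ratios had an SD of 0.28 and 19.4% were at least as large in either direction. The reference lists 5 pseudogenes named after PTPN11, and whether the probe also binds their transcripts was not tested.

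The RAS GTPase and its GAP were close to their vehicle levels. HRAS read 583.1 and 579.3, a log2 ratio of -0.01. A second HRAS probe, for another transcript, was not detected on either array (125.3 and 114.2). NF1 encodes neurofibromin, a GTPase-activating protein that returns RAS to its inactive state. It read 126.7 with vehicle, where it was not detected, and 132.3 after SB590885, where it passed detection with a p of 0.0065. That value lay within 1 unit of the lowest detected vehicle intensity, 132.2, so no difference in NF1 was measurable at this signal. The reference lists 12 pseudogenes named after NF1, more than for any other of the 10 genes.

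At the RAF step, both measured genes were dim and lower. ARAF, the RAF family kinase among the 10 genes, read 181.1 with vehicle and 160.3 after SB590885, 1.13-fold lower with a log2 ratio of -0.18. The background-corrected log2 ratio of ARAF was -0.41 (1.33-fold lower). Of the 500 genes nearest in intensity to ARAF, 30.0% had a ratio at least as large as deposited.

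KSR2, a RAF-related scaffold that brings RAF, MEK and ERK together, had 4 probes. The brightest read 171.8 and 139.0, a log2 ratio of -0.31 (1.24-fold lower). With background correction, this KSR2 ratio was -0.84 (1.79-fold lower), the one value of the 10 genes past 1.5-fold, and with a larger offset it was -0.52 (1.43-fold). Among the 500 detected genes nearest in intensity 5.80% had a deposited ratio at least as large, the smallest such share of the 10 genes. The other KSR2 probes did not repeat it. One was detected after SB590885 only and read 126.2 and 130.5, a log2 ratio of 0.05. The remaining 2 were not detected on either array, with log2 ratios of 0.02 and -0.10. The difference in KSR2 thus rested on 1 probe close to the detection limit.

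**Figure D2:**
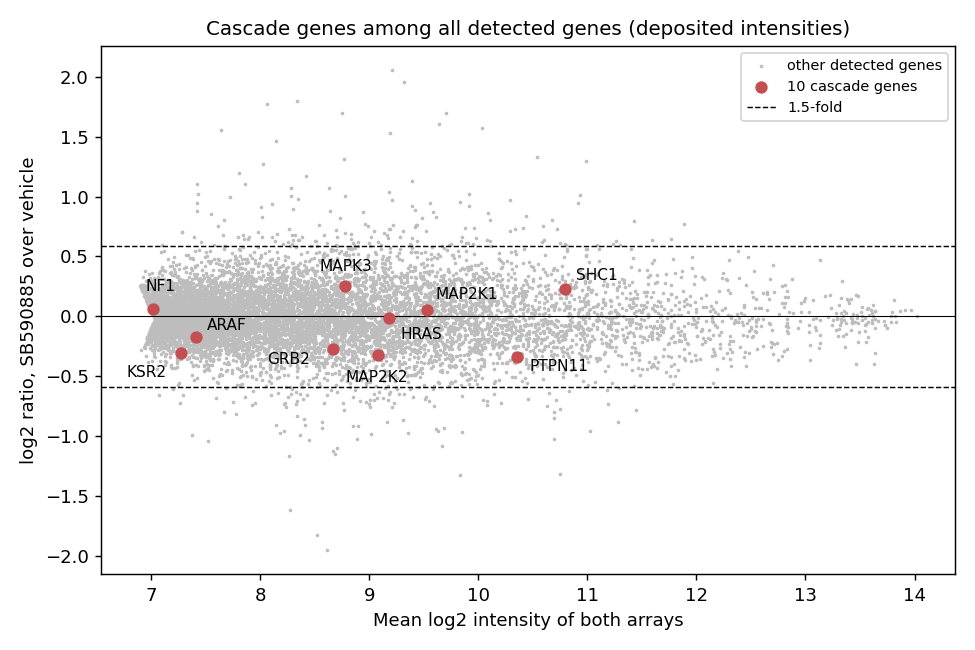
Log2 ratio of SB590885 over vehicle (deposited intensities) against mean log2 intensity of both arrays, with 1 point for each of 10430 detected genes, the 10 cascade genes in red and dashed lines at 1.5-fold. The 10 genes lie inside the dashed lines at all intensities, between -0.34 and 0.26.

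The MEK genes had unlike ratios. MAP2K1 (MEK1) read 724.0 with vehicle and 751.1 after SB590885, a log2 ratio of 0.05. MAP2K2 (MEK2) read 605.8 and 483.7, a log2 ratio of -0.32 (1.25-fold lower), and -0.40 with background correction. Each gene had a single probe, so neither value was repeated within the arrays. Near MAP2K2 in intensity the SD of log2 ratios was 0.32, and 24.8% of the 500 nearest genes had a ratio at least as large, so its ratio was about 1 such SD from 0. Near MAP2K1 84.2% did.

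MAPK3 encodes ERK1, a kinase that MEK1 and MEK2 phosphorylate. Its brighter probe read 401.1 and 478.7, 1.19-fold higher with a log2 ratio of 0.26. The second MAPK3 probe, annotated to another transcript, read 306.7 and 394.6, 1.29-fold higher with a log2 ratio of 0.36. Both MAPK3 probes were detected on both arrays and both were higher. The 2 probes of GRB2 also shared a sign. With background correction the MAPK3 probes were 1.26-fold and 1.42-fold higher, and of the 500 genes nearest to its brighter probe in intensity 35.2% had a ratio at least as large.

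Different probes of a gene were the only repeat within the arrays. Of the 10 genes 4 had 2 detected probes (GRB2, KSR2, MAPK3 and SHC1), with the same sign in 2 (GRB2 and MAPK3). Over all 2631 genes with several detected probes, all signs were the same in 60.4%. The brightest and second probe differed by 0.11 for MAPK3, 0.20 for GRB2, 0.31 for SHC1 and 0.35 for KSR2 on the log2 scale. Over all such genes this difference had an SD of 0.25.

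The other genes of the pathway were taken from a list of 64, of which 53 had a named probe and 39 were detected, 33 of them on both arrays. The 11 without a named probe were not analysed here. None of the 39 differed by 1.5-fold in the deposited intensities, against 2.67% of all detected genes. Of the 39 genes 19 were higher and 20 lower, and their median log2 ratio was -0.0064. With background correction 1 of the 39 passed 1.5-fold, against 9.79% of all detected genes. Neither count exceeded the background share. The 1 gene was GAB2, a docking protein that binds GRB2 and SHP2. GAB2 read 139.7 with vehicle and 196.2 after SB590885, a log2 ratio of 0.49 as deposited and 1.22 with correction (2.33-fold higher). With the larger offset of 50 the GAB2 log2 ratio was 0.80 (1.74-fold higher). Its vehicle value lay close to the lowest detected vehicle intensity, 132.2, and the remaining GAB2 probes were not detected.

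By role, the ratios were spread around 0. Among 5 detected adaptors the lowest as deposited was CBL, a ubiquitin ligase that tags activated receptors, at -0.28 (-0.40 with background correction). Of 8 RAS exchange factors with a probe 2 were detected, SOS1 at -0.01 and RASGRP2 at -0.05. Among 4 other RAS-family GTPases RRAS was highest at 0.33 and RRAS2 lowest at -0.26. Of 4 detected negative regulators of RAS, 2 on 1 array only, LZTR1, which directs RAS proteins to degradation, and RASAL1, a GAP detected after SB590885 only, were both at 0.14 and RASAL3, another GAP, was lowest at -0.07. With background correction LZTR1 was at 0.16 and RASAL1 at a measured 0.46.

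LAMTOR3, a scaffold for MEK1 and ERK1 on late endosomes, read 538.5 and 395.2, a log2 ratio of -0.45 (-0.57 with background correction), and a second LAMTOR3 probe, detected with vehicle only, had -0.17. Its partner LAMTOR2 had a log2 ratio of 0.16 on its brighter probe (1480 to 1655) and 0.59 on its second (454.7 to 683.7), the one probe of a cascade gene past 1.5-fold as deposited. Of 10 detected scaffolds, chaperones and regulators 5 were higher, led by the chaperone HSP90AB1 at 0.26, while CDC37, the HSP90 partner that loads kinases such as RAF, had -0.31. Among 7 genes of the 14-3-3 family, which bind phosphorylated RAF, ratios ran from -0.17 (YWHAE) to 0.28 (YWHAG). Of 7 kinases activated by ERK 2 were higher, MKNK2 and RPS6KA2, the latter detected after SB590885 only. MKNK2, which phosphorylates a translation initiation factor, had 0.30 on its brighter probe but -0.03 on its second (185.5 to 181.3). RPS6KA5 (MSK1), a histone kinase, was lowest at -0.31, or -0.51 with background correction.

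**Figure D3:**
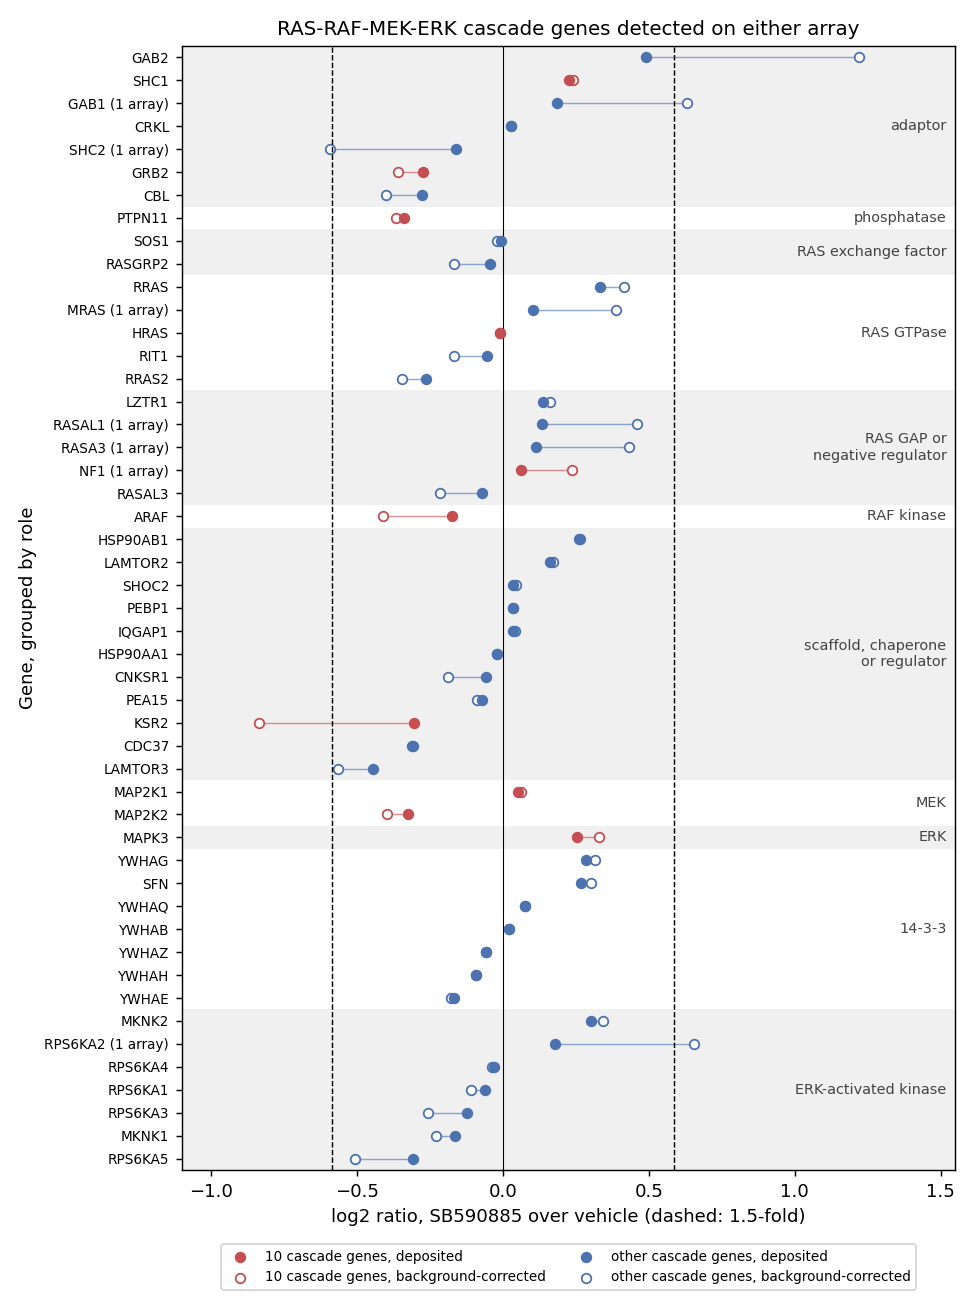
Log2 ratio of SB590885 over vehicle for the 10 genes (red) and 39 other detected cascade genes (blue), grouped by role, as deposited (filled) and background-corrected with an offset of 16 (open), with dashed lines at 1.5-fold. All filled points lie inside the lines, and the open points of genes detected on 1 array only are measured ratios that the counts replace by a bound, which leaves KSR2 and GAB2 past 1.5-fold.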

How the data were processed

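Total RNA was labelled as biotinylated cRNA, per the labels' protocols, and hybridised to 1 array for each of 2 conditions. The authors deposited normalized intensities and detection p-values for 47318 probes. How they were normalized, with which software, and how long the treatment lasted is not given in the sources used here. The series matrix equals the deposited intensities. The table named non-normalized holds the same values multiplied by 1.025, so no raw signal was used. Probes were named from the platform annotation (30111 probes with 1 gene, 8 with several, left unnamed, and the rest unnamed here), with 30072 symbols updated through RefSeq GRCh38.p14. A gene counted as detected with a deposited detection p-value under 0.01 on either array. The brightest detected probe by mean log2 intensity stood for it, and log2 ratios are SB590885 over vehicle. A gene detected on 1 array was counted by its ratio to the lowest detected intensity on the other. Background correction was limma 3.58.1 neqc (offset 16) on the deposited intensities. Sizes were counted at 1.5-fold, and the counting was tested on simulated data. There every gene was detected on both arrays and planted changes were larger than those of the cascade genes. The rule for genes detected on 1 array was therefore not tested. Shares among 500 genes nearest in intensity are descriptions. The 10 genes and the lists were chosen with earlier results of these data known. All 10 genes were named, and of other cascade genes the highest and lowest of each role and any past 1.5-fold. The second LAMTOR2 probe was named after its value was seen. The number of arrays limits the precision.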

Additional observations from a re-analysis of the deposited data

How the results depend on the processing

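Background correction moved the counts most. With neqc at an offset of 16, 1 of the 10 genes (KSR2), 1 of the other cascade genes (GAB2) and 1021 of all detected genes passed 1.5-fold, against 0, 0 and 278 as deposited. At an offset of 50 these counts were 0, 1 and 544. A 2-fold rule gave 0, 0 and 40. The median log2 ratio of the 10 genes stayed between -0.19 and -0.07 in 7 alternatives, and no gene of the 10 changed sign. Of 69 single values 68 moved by less than the SD of 0.25 between probes of a gene, and KSR2 with an offset of 16 (-0.84) did not. Averaging detected probes gave 0.07 for SHC1 and -0.13 for KSR2. NF1 has no value when detection was required on both arrays. Series matrix values equal the deposited ones, and centring on the median of detected probes gave a shift of 0, so neither could move a value. The other detection limits kept the same probe for each gene, and averaging could move only the 4 genes with 2 detected probes. Most of the 69 values were thus fixed, and their stability says little. No alternative used the second probes of SHC1 (-0.08) and KSR2 (0.05) alone, which had the other sign. No paired analysis was possible because each condition had 1 array, and no array could be left out.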

Other observations

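Genes of the parallel MAP kinase cascades (JNK, p38, ERK5 and atypical ERKs), listed after other values of these arrays were seen, also stayed within 1.5-fold as deposited. Of 17 listed genes 15 had a named probe and 13 were detected, 8 higher and 5 lower, with a median log2 ratio of 0.06. As deposited, 2.67% of all detected genes passed 1.5-fold. With background correction 2 of the 13 did, MAPK11 and MAPK8, against 9.79% of all detected genes, and this difference in share was not tested. MAPK12, a p38 kinase, was highest as deposited at 0.39 (303.8 to 397.6), and had 0.54 with background correction. MAPK11, another p38 kinase, was detected after SB590885 only (156.9) and was at least 1.19-fold higher, or a log2 bound of 0.77 with background correction. MAP2K4, a kinase that activates JNK and p38, had -0.30 (688.7 to 559.5). MAPK8, which encodes JNK1, had -0.28 (179.2 to 148.1) and was 1.61-fold lower with background correction. These values have no replicate.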
